A study of Mus musculus with 6 samples.

Results

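Genes of the DNA damage response and of DNA repair were followed in mouse osteoblasts with and without pRb, the retinoblastoma protein. The set was chosen by function and holds 40 genes of homologous recombination, the Fanconi anemia pathway, mismatch repair, damage signaling, end joining, and base excision and replication-coupled repair. Probe sets annotated with the symbol of exactly 1 of these genes were taken, and each gene was represented by its brightest probe set, by mean signal over all 6 arrays. Of the 40 genes, 39 had such a probe set, among 18193 genes on the array. Xrcc2 had none and was not analysed here. Bard1, the partner of Brca1, had signals between 4.3 and 9.3 on the 6 arrays, below the floor of 32 set for background, and was not tested. This left 38 genes of 16308 tested.

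Cells repair broken DNA by copying an intact sister (homologous recombination) or by direct ligation (end joining), while the Fanconi anemia proteins act on interstrand crosslinks and the mismatch and base excision pathways remove wrong or damaged bases. Kinases led by Atm and Atr detect damage and slow the cell cycle. pRb holds back E2F transcription factors, and many genes for replication and for recombination are known E2F targets expressed in dividing cells.

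The cells were osteoblasts from the skull vault of embryonic day 18.5 mice that had been passaged until immortal (MC3T3 cells). The pRb-deficient osteoblasts, labelled Rb knockout, were derived from pRb-null animals and the pRb-expressing osteoblasts, labelled wild type, from their control littermates, in crosses of mice with a floxed Rb1 allele (flox19) and Col1a1-Cre mice, which express Cre from a collagen promoter active in osteoblasts, on a C57BL/6 background. The cells received no DNA-damaging treatment that the sources describe. The study states that both lines were harvested while still proliferating, which it held to limit what pRb does to the cell cycle. RNA from 3 cultures of each kind was hybridized to 1 Affymetrix Mouse Genome array per culture, and values are MAS5 signals on a linear scale. The labels call the 3 cultures of a group biological replicates but do not say whether they came from separate animals or separately immortalized lines, so p-values measure the spread between these cultures, which may be technical, and line of origin and pRb status cannot be told apart.

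Log2 fold changes are pRb-deficient over pRb-expressing, with standard errors (SE), and adjusted p-values are from limma with Benjamini-Hochberg adjustment over all 38427 probe sets tested. Signals of a gene are compared between cultures for 1 probe set and not with those of other genes. Marker signals are also summed over genes, and for Rad18 the signals of its probe sets are compared. Rb1 itself fell in pRb-deficient cultures, from 1120 ± 9.17 to 131 ± 10.4 (SD, n = 3 each), a log2 fold change of −3.09. Median array signals lay between 108 and 119.9. The osteoblast markers Ibsp, Sp7 and Dmp1 were detected in pRb-expressing cultures and were near background or low in pRb-deficient ones, with mean signals of 3.5, 124 and 6.13. Over the 7 osteoblast markers measured, 6 were lower and Phex was higher, and their summed signal was 39160 to 46090 in pRb-expressing against 17760 to 27680 in pRb-deficient cultures. Most of this sum came from Col1a1 (mean signals of 18800 against 10900) and Col1a2 (19000 against 11300). Summed hematopoietic markers were 778.8 to 815.1 against 729.5 to 904.4, with 1 of 6 tested (Cd68) higher and Ptprc near the floor, and none of 5 endothelial markers passed. Of the smooth muscle and pericyte markers 3 of 6 were higher, of the chondrocyte markers 1 of 6 was higher and 2 were lower, and of the epithelial markers 2 of 6 were lower. The part of these differences in the results for repair genes was not tested, and in whole cultures fewer cells of a type and less RNA per cell cannot be told apart.

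The repair genes did not move together. Of the 38 tested, 7 were higher in pRb-deficient osteoblasts (Msh3, Atm, Chek1, Xrcc4, Xrcc6, Lig4 and Rad18), 11 were lower (Brca1, Rad51ap1, Fancg, Fancl, Brip1, Nbn, Rad50, Trp53bp1, Xrcc5, Prkdc and Parp1) and 20 did not pass at an adjusted p of 0.05. The share that passed, 47.4%, stood beside 41.9% of all genes tested. In all genes 18.5% were higher and 23.4% lower. The cultures of the groups did not overlap for 23 of the 38 repair genes (60.5%), against 53.8% of all genes. Their median log2 fold change was −0.15, against −0.09 for all genes, and it was −0.06 without pRb-deficient culture 1. The changes were moderate, between −1.30 and 0.82 on the log2 scale, and only Rad51ap1 and Fancl changed by more than 2-fold among the genes that passed.

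**Figure D1:**
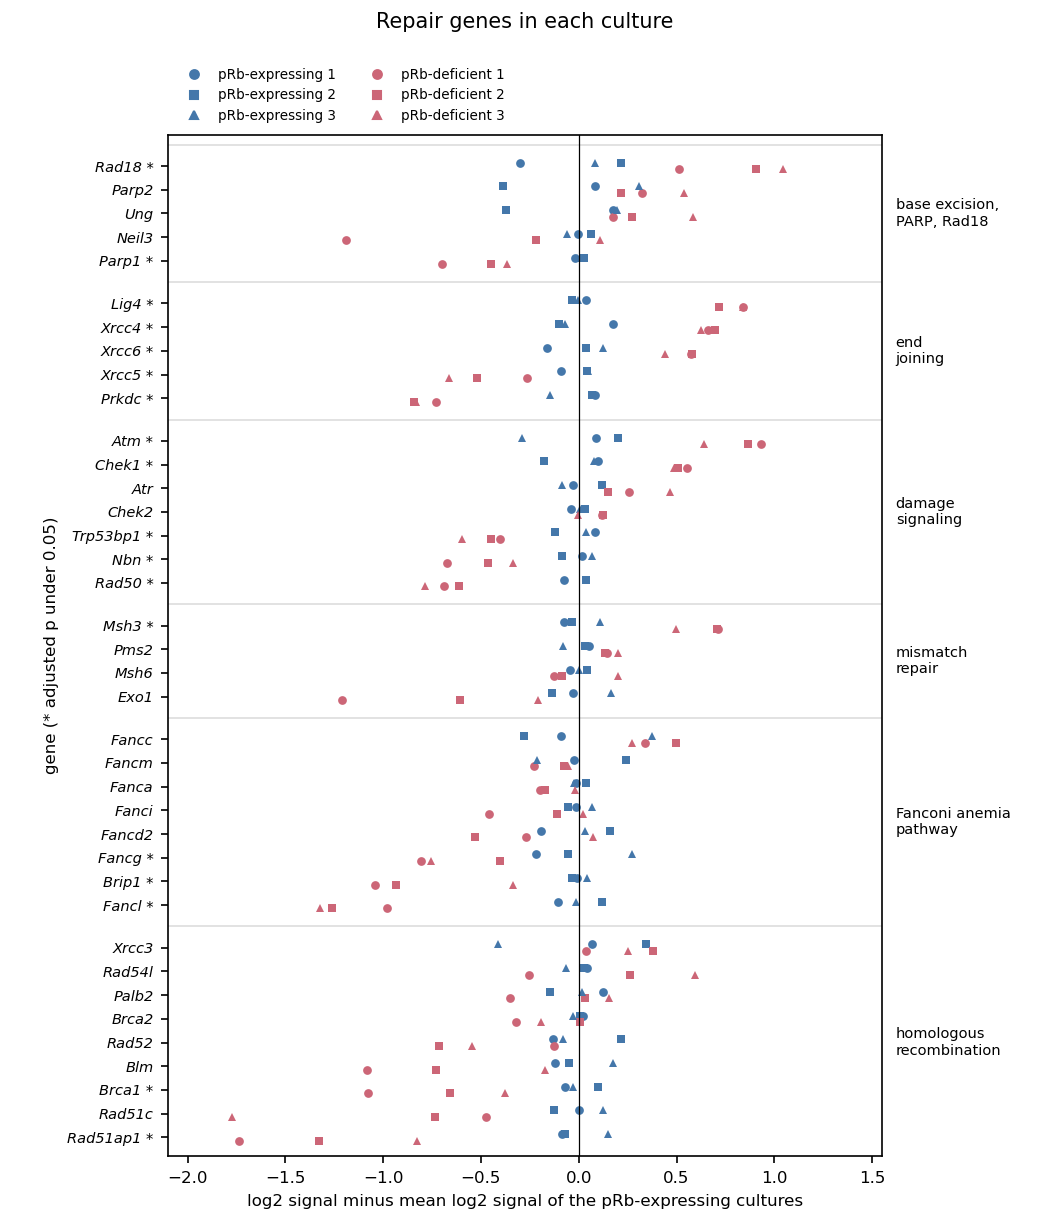
Log2 signal of each repair gene in each culture (symbols), relative to the mean log2 signal of the 3 pRb-expressing cultures, which is set at 0. Genes are grouped by role, asterisks mark an adjusted p under 0.05 from limma, and the end joining genes separate into 3 above and 2 below the line with no overlap of the groups.

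Of 9 homologous recombination genes tested, 2 were lower and 7 did not pass. The 22.2% that passed stood below the 41.9% of all genes, and the share that was lower was near the 23.4% of all genes. Rad51ap1, which stimulates strand pairing in recombination, had signals of 1086, 1098 and 1278 in the pRb-expressing cultures and 346, 458 and 648 in the pRb-deficient cultures. The groups were widely separated, the fall was 2.46-fold (log2 fold change −1.30, SE 0.22, adjusted p = 0.00357 from limma), and each of the 4 probe sets of this gene was lower, with log2 fold changes from −1.56 to −1.02. Brca1, which promotes the resection and recombination of double-strand breaks, had signals of 717, 808 and 740 against 357, 477 and 580. The groups did not overlap, although the pRb-deficient cultures differed among themselves by more than the pRb-expressing ones, and the log2 fold change was −0.71 (SE 0.18, adjusted p = 0.0194 from limma). This call was lost without pRb-expressing culture 2 (adjusted p = 0.0703), without pRb-expressing culture 3 (0.0562) and without pRb-deficient culture 2 (0.0538). A further probe set of Brca1 was lower at −0.89 (adjusted p = 0.0253), and the remaining pair of dimmer ones did not pass.

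Rad51c, which acts in recombination, and Blm, a helicase that dissolves recombination intermediates, also had no overlap between groups but did not pass. Rad51c signals were 292, 267 and 317 against 210, 175 and 85.3, a 1.99-fold lower geometric mean that did not pass (log2 SE 0.33, adjusted p = 0.057 from limma). It passed without pRb-deficient culture 1 (adjusted p = 0.0258) or without pRb-deficient culture 3 (0.0326), the culture with the lowest signal. Blm signals were 352, 371 and 432 against 181, 231 and 340 (log2 fold change −0.66, adjusted p = 0.0713), and Blm passed without pRb-deficient culture 3 (0.00858), whose signal was nearest to the pRb-expressing range. The recombination mediator Rad52 had a log2 fold change of −0.46 (adjusted p = 0.124), with pRb-deficient culture 1 at 241, inside the pRb-expressing range of 240 to 305, and it passed without that culture (adjusted p = 0.0349).

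The other recombination genes differed by less than the spread between cultures. Brca2, a mediator of recombination, had 708, 701 and 683 against 558, 701 and 609 (log2 fold change −0.17, adjusted p = 0.259, 95% interval −0.41 to 0.07). Palb2, the linker between Brca1 and Brca2, had a log2 fold change of −0.06, Xrcc3, which also acts in recombination, of 0.22, and the motor protein gene Rad54l of 0.20. For Rad54l the pRb-deficient cultures spread from 274 to 493 around pRb-expressing signals of 313 to 336.

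In the Fanconi anemia pathway 3 of 8 genes were lower and 5 did not pass, so that 37.5% passed, against 41.9% of all genes. Fancl, the ubiquitin ligase of the core complex, had signals of 775, 905 and 826 against 422, 347 and 334. Every pRb-deficient culture was far below every pRb-expressing one, and the fall was 2.28-fold (log2 fold change −1.19, SE 0.12, adjusted p = 0.000377 from limma). Fancg, a core complex subunit, had 407, 455 and 572 against 271, 358 and 280, without overlap (log2 fold change −0.65, SE 0.17, adjusted p = 0.0244), and its second probe set was lower at −1.17 (adjusted p = 0.004). Brip1, a helicase that binds Brca1, had 286, 281 and 296 against 140, 150 and 227 (log2 fold change −0.77, SE 0.21, adjusted p = 0.0267).

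The calls of Fancg and Brip1 depended on single arrays. Fancg was lost in 4 of the 6 fits that leave out an array (pRb-expressing 2 or 3, pRb-deficient 1 or 3), with adjusted p-values up to 0.0766, and Brip1 in 5 (all but pRb-deficient 3), up to 0.0883. The gene pair whose products are ubiquitinated by Fancl did not pass, with log2 fold changes of −0.24 for Fancd2 and −0.18 for Fanci. The core complex genes Fanca and Fancc had −0.13 and 0.37, and Fancc passed without pRb-expressing culture 3 (adjusted p = 0.0438). Fancm, which anchors the complex to DNA, had −0.12 (adjusted p = 0.67), while its second probe set was lower at −0.95 (adjusted p = 0.017), so the probe sets of this gene differed.

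Of the mismatch repair genes, Msh3 was higher and the others did not pass, so that 25% passed, against 41.9% of all genes. Msh3, which recognizes insertion and deletion loops, had 259, 267 and 294 against 446, 445 and 385. The groups did not overlap (log2 fold change 0.64, SE 0.12, adjusted p = 0.00565 from limma), and the second probe set was higher at 0.86 (adjusted p = 0.0224). Msh6, which recognizes single mismatches, had 1581, 1681 and 1635 against 1494, 1540 and 1878, a log2 fold change of −0.00 with a 95% interval of −0.24 to 0.23. Exo1, the exonuclease that removes the mismatched strand and also resects breaks, had 511, 474 and 583 against 225, 342 and 451. These groups did not overlap, but the pRb-deficient cultures spread over a 2-fold range, and Exo1 passed (log2 fold change −0.67, adjusted p = 0.078) only when pRb-deficient culture 3 was left out among the fits without 1 array (0.0166). Pms2, an endonuclease subunit, had a log2 fold change of 0.16 (adjusted p = 0.278).

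Of the 7 damage signaling genes, the kinase genes Atm and Chek1 were higher and Nbn, Rad50 and Trp53bp1, which encode sensors and adaptors at breaks, were lower. In this group 71.4% passed, against 41.9% of all genes. Atm, whose kinase responds to double-strand breaks, had signals of 488, 526 and 376 against 873, 834 and 714. The rise was 1.75-fold (log2 fold change 0.81, SE 0.15, adjusted p = 0.0054 from limma) with no overlap, but the second probe set of Atm did not pass, at 0.34 (adjusted p = 0.133). Chek1, the checkpoint kinase that acts under Atr, had 512, 423 and 504 against 702, 679 and 670 (log2 fold change 0.52, SE 0.10, adjusted p = 0.00728). Its second probe set was higher at 0.87 (adjusted p = 0.00151), while a dimmer one was at −0.27 (adjusted p = 0.459). Atr, the kinase that responds to stalled replication, had 501, 554 and 481 against 610, 566 and 706, a log2 fold change of 0.29 that did not pass (adjusted p = 0.094). Chek2, the kinase under Atm, had 0.08, with a 95% interval of −0.11 to 0.27.

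Rad50 and Nbn encode subunits of the complex that binds broken ends and activates Atm. Mre11a, of the same complex but outside the set, did not pass (log2 fold change −0.10, adjusted p = 0.654 from limma). Rad50 had signals of 995, 1074 and 1075 against 650, 685 and 607, tight groups far apart (log2 fold change −0.70, SE 0.08, adjusted p = 7e-04 from limma). Nbn had 798, 744 and 828 against 495, 573 and 625, also without overlap (log2 fold change −0.49, SE 0.11, adjusted p = 0.0118). Trp53bp1, which binds chromatin at breaks and favors end joining, had 1696, 1470 and 1639 against 1208, 1169 and 1056 (log2 fold change −0.48, SE 0.09, adjusted p = 0.0048). For this gene 3 of 6 probe sets were lower, one of them at −1.20, and the other three did not pass.

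All 5 end joining genes of the set passed, in both directions, against 41.9% of all genes. This holds for the genes chosen. Among other end joining genes measured outside the set, Aplf (log2 fold change −1.70), Polm (−0.88) and Polq (−0.65) were lower. Nhej1 (−0.08) and Poll (−0.06) did not pass. Xrcc6 and Xrcc5 encode the 2 subunits of Ku, the ring that binds broken ends, and they moved apart. Xrcc6 rose, with signals of 717, 826 and 877 against 1197, 1199 and 1093 (log2 fold change 0.53, SE 0.10, adjusted p = 0.00503 from limma). Xrcc5 fell, with 484, 532 and 534 against 430, 359 and 326 (log2 fold change −0.48, SE 0.13, adjusted p = 0.0247). The fall of Xrcc5 was the weaker of these calls and was lost in 5 of the 6 fits without 1 array, all but that without pRb-deficient culture 1, with adjusted p-values up to 0.082. Prkdc, the kinase that joins Ku at the break, had 410, 406 and 350 against 234, 216 and 218, a 1.74-fold fall without overlap (log2 fold change −0.80, SE 0.12, adjusted p = 0.00234).

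Lig4 and Xrcc4, which encode subunits of the ligation complex, were both higher, while Nhej1, outside the set, did not pass (log2 fold change −0.08, adjusted p = 0.756 from limma). Lig4, the ligase, had signals of 214, 204 and 208 against 373, 343 and 373, a 1.74-fold rise (log2 fold change 0.80, SE 0.12, adjusted p = 0.00181 from limma). Xrcc4, its scaffold, had 270, 222 and 227 against 377, 387 and 368 (log2 fold change 0.66, SE 0.13, adjusted p = 0.00619), and the second Xrcc4 probe set was higher at 1.11. In both genes the groups stood clear of each other.

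Among the 5 remaining genes, Parp1 was lower and Rad18 higher, so that 40% passed, against 41.9% of all genes. Parp1, which marks strand breaks with poly(ADP-ribose), had 2015, 2078 and 2028 against 1258, 1495 and 1584 (log2 fold change −0.50, SE 0.10, adjusted p = 0.0059 from limma). Each of its 3 brighter probe sets was lower, at −0.56 to −0.50, and the dimmest one did not pass. Rad18, the ligase that ubiquitinates PCNA at stalled forks, had 270, 386 and 352 against 475, 622 and 686 (log2 fold change 0.82, SE 0.19, adjusted p = 0.0138). Its other 3 probe sets did not pass, at 0.13, −0.40 and −0.19, so the rise of Rad18 was seen with 1 probe set of 4, and without pRb-deficient culture 2 its adjusted p was 0.0541. That probe set was the brightest only through the pRb-deficient cultures. In pRb-expressing cultures its mean signal was 336, below 415 and 350 for other Rad18 probe sets. Parp2, a paralog of Parp1, had a log2 fold change of 0.36, and Ung, which removes uracil from DNA, of 0.34, neither of which passed. Neil3, a glycosylase of dividing cells, had 448, 468 and 430 against 197, 386 and 484. The log2 SD of Neil3 was 0.06 with pRb and 0.68 without it, and the difference did not pass (adjusted p = 0.347).

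**Figure D2:**
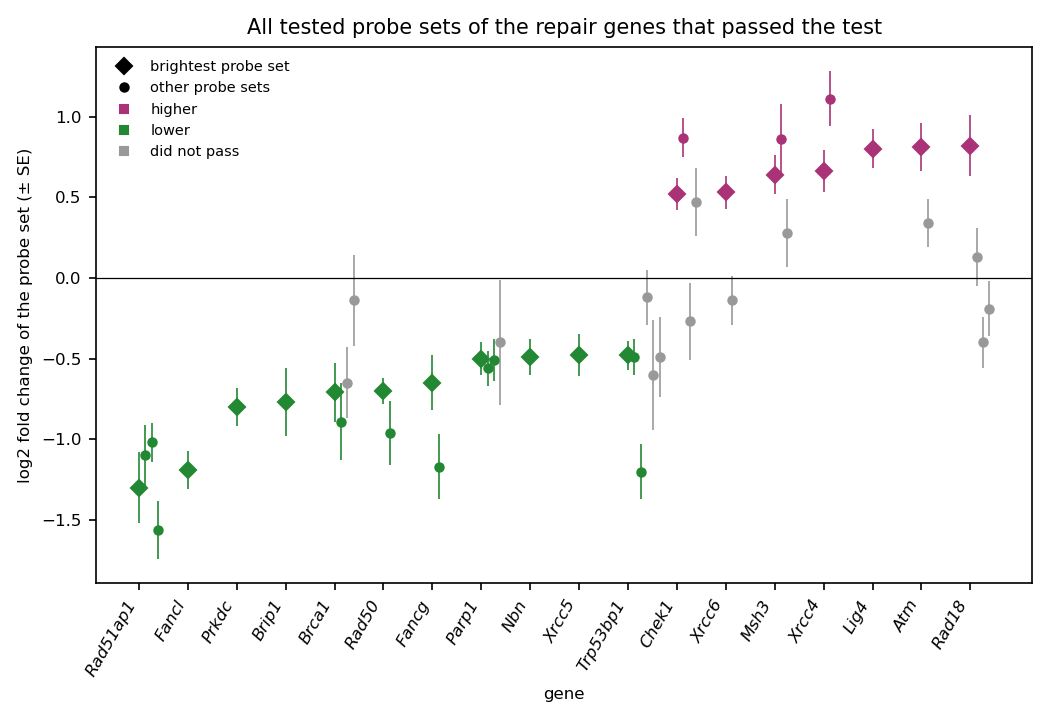
Log2 fold change (bars, SE) of every tested probe set of the 18 repair genes that passed, with diamonds for the brightest probe set of each gene and circles for the others. For 9 of the 12 genes with more than 1 tested probe set another probe set passed in the same direction, and no other probe set passed in the opposite direction.

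The probe sets of a gene mostly gave the same direction. Of the 18 genes that passed, 12 had another tested probe set, and for 9 of them another one passed the same way. The exceptions were Atm, Xrcc6 and Rad18. The second probe set of Xrcc6 was dim, with mean signals of 28.4 and 5.57, and its log2 fold change was −0.14.

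The pRb-deficient cultures were more variable than the pRb-expressing ones in 25 of the 38 repair genes. The median log2 SD was 0.12 with pRb and 0.17 without it, and over all genes it was 0.13 and 0.18. Among the pRb-deficient cultures, culture 1 had the lowest signal for 19 genes and culture 3 the highest for 20. The median of the 38 genes relative to the pRb-expressing mean was −0.26, −0.10 and 0.01 on the log2 scale in pRb-deficient cultures 1, 2 and 3, whereas over all genes it was −0.08, −0.10 and −0.08. DNA replication genes had medians of −0.18, 0.01 and 0.15 in the same cultures, so that culture 1 was again the lowest and culture 3 the highest. The same cultures were lowest and highest for Rad51ap1, Brca1, Blm, Exo1, Rad54l and Neil3. The groups by role differed in this. Fanconi genes had medians of −0.36, −0.29 and −0.04, mismatch repair genes of 0.01, 0.02 and 0.20, and base excision and replication-coupled repair genes of 0.17, 0.22 and 0.54. In these groups culture 1 was the lowest and culture 3 the highest. Homologous recombination genes had medians of −0.35, −0.66 and −0.20, with culture 2 the lowest. Damage signaling genes had 0.12, 0.12 and −0.00 and end joining genes 0.57, 0.58 and 0.44, with culture 3 the lowest.

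Most repair genes that passed had the sign of the median of their chromosome, a description given without the matching share over all genes. Chromosomes were taken from the RefSeq annotation of GRCm38.p6, and the median log2 fold change of each was calculated over those of its genes whose mean signal reached 200. The median was −0.58 on chromosome 6, −0.52 on 11, −0.50 on 1 and −0.43 on 16, and it was 0.28 on 9, 0.33 on 13 and 0.35 on 15. Brca1, Fancl, Brip1 and Rad50 lie on chromosome 11, which held 4 of the 11 genes that fell, and Rad51c lies there too. Parp1 and Xrcc5 lie on chromosome 1, Prkdc on 16, Rad51ap1 on 6 and Trp53bp1 on 2, where the median was −0.33. Of the genes that rose, Atm and Chek1 lie on chromosome 9, Msh3 and Xrcc4 on 13 and Xrcc6 on 15.

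Of the 18 tested repair genes on chromosomes with a median of −0.2 or lower, 9 fell and 1, Rad18, rose. Of the 14 on chromosomes with a median of 0.2 or higher, 5 rose and none fell. The 6 on other chromosomes held Fancg and Nbn, which fell, and Lig4, which rose. In all, 15 of the 18 genes that passed had the sign of their chromosome median, the exceptions being Fancg, Nbn and Rad18. The median was only 0.06 on chromosome 4 (Fancg and Nbn) and on chromosome 8 (Lig4), so the sign says little for these genes. By definition most genes used for a chromosome median share its sign. The share over all genes that passed is not given here, so these counts are a description. The median of 20 flanking genes, 10 on each side, had the sign of the gene for 16 of the 18, the exceptions being Chek1 (flanking median −0.31) and Rad18 (−0.64). Fancg and Nbn shared the sign of their flanking genes, whose medians were −0.67 and −0.72. Across the 38 genes, the fold change and the chromosome median had a Pearson r of 0.69 and a Spearman rho of 0.71, given as a description, since genes of a chromosome share its median and are not independent. Copy number was not measured here, and the part of chromosome-wide shifts in each gene's value was not tested directly.

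**Figure D3:**
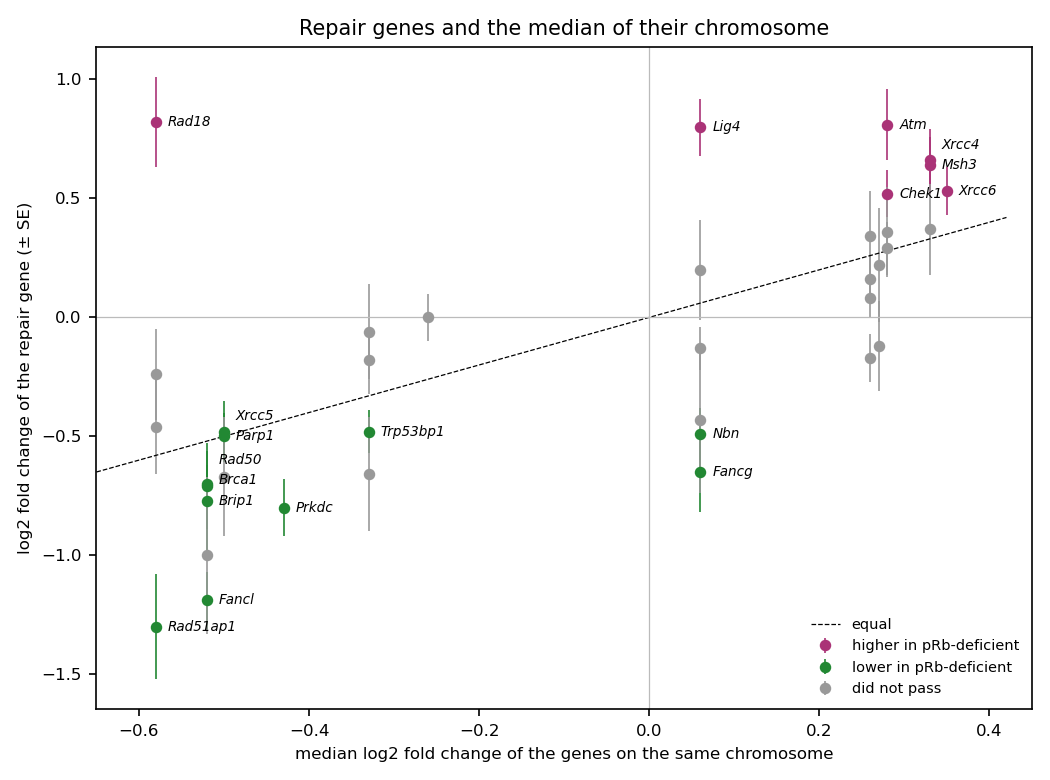
Log2 fold change of each tested repair gene against the median log2 fold change of its chromosome, with SE as bars and a dashed line where both are equal. Genes that fell lie mainly at chromosome medians of −0.2 or lower and genes that rose mainly at 0.2 or higher. Rad18, Fancg and Nbn have the sign opposite to their chromosome median, which was only 0.06 for Fancg and Nbn.

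When the median of its chromosome was removed from each gene, 9 of the 38 repair genes passed, 3 higher and 6 lower. This was a smaller share than the 40.2% of all genes. Atm (0.53, adjusted p = 0.0323), Lig4 (0.74, adjusted p = 0.00313) and Rad18 (1.40, adjusted p = 0.00131) were higher than their chromosomes. For Rad18 this holds for its brightest probe set, and its other probe sets did not pass as measured. Rad51ap1 (−0.71, adjusted p = 0.0395), Fancl (−0.67, adjusted p = 0.00483), Fancg (−0.71, adjusted p = 0.0188), Nbn (−0.55, adjusted p = 0.00847) and Prkdc (−0.37, adjusted p = 0.046) were lower. Brca2 passed only in this form (−0.43, adjusted p = 0.0179), lying on chromosome 5, where the median was 0.26.

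A departure from the chromosome was not always one from the neighbouring genes. The log2 fold changes of Fancg (−0.65) and Nbn (−0.49) were no further from 0 than the medians of their flanking genes (−0.67 and −0.72), and Atm (0.81) was near its own (0.64). The flanking medians were −0.62 for Rad51ap1 (−1.30), −0.77 for Fancl (−1.19), −0.51 for Prkdc (−0.80) and 0.25 for Lig4 (0.80). No test was made against flanking genes.

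The other 10 genes did not pass against their chromosomes. Parp1 and Xrcc5 matched the chromosome 1 median, at −0.00 and 0.02, and Rad50 was at −0.18, Brca1 at −0.19 and Brip1 at −0.25 relative to chromosome 11. Trp53bp1 was at −0.16, Chek1 at 0.24, Xrcc6 at 0.18, Msh3 at 0.31 and Xrcc4 at 0.33. Rad51ap1, Fancl, Atm, Nbn, Lig4 and Prkdc passed in every fit that left out 1 array and also against their chromosomes.

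**Figure D4:**
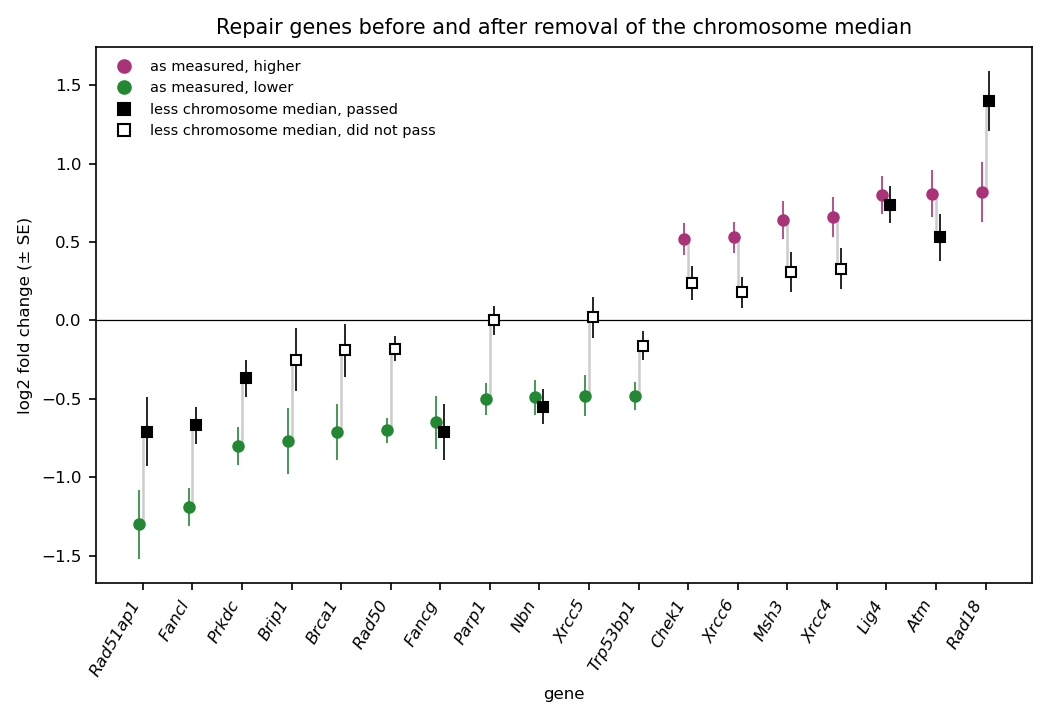
Log2 fold change (bars, SE) of the 18 repair genes that passed, as measured (circles) and after the median of their chromosome was removed (squares, filled where the gene still passed). Parp1 and Xrcc5 move to about 0, while Fancl, Rad51ap1 and Prkdc stay below it and Lig4, Atm and Rad18 stay above it.

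Promoters were searched for the E2F motif, since pRb acts through E2F factors. RefSeq promoter sequences of GRCm38.p6 (250 bases before to 50 after the start) were at hand for 34 of the 40 genes, 33 of them tested. The 8-base motif was searched on both strands in its 4 forms TTTCCCGC, TTTCGCGC, TTTGCCGC and TTTGGCGC. A match was found in 7 of the 33 (21.2%), against 4.01% of 13018 tested genes with a promoter and 2.26% of all 32851 promoters in the table. Of the 7, Msh3 and Xrcc6 were higher, Fancg was lower, and Brca2, Rad51c, Msh6 and Chek2 did not pass, so genes with a match went both ways. Their median log2 fold change was 0.00, against −0.09 for the 26 without one, and over all genes tested it was −0.08 with and −0.10 without a match. The promoter of Bard1, which was not tested, also held a match.

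The 3 genes that passed and hold a match are shown with 36 bases on each side of the match, written along the strand of the gene, and capitals mark the matched bases. Those of Fancg (chr4:43010310-43010389, minus strand) begin at position −52 from the start. In Msh3 (chr13:92355162-92355241, minus strand) matches on opposite strands overlap, at positions −202 and −198. In Xrcc6 (chr15:82016287-82016366, plus strand) the match is at position −46 and reads along the opposite strand.
Fancg: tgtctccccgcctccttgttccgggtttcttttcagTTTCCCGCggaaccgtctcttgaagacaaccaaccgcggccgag
Msh3: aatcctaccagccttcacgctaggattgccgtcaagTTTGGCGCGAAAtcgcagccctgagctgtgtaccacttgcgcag
Xrcc6: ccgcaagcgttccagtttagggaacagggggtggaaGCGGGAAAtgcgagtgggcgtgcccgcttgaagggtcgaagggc
These are matches of letters in a window and not measured binding sites, and a missing match says only that these letters are absent from the window.

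Other repair genes also moved in both directions, although those named from each list, by lowest adjusted p, were all lower. Of 105 tested, 21 were higher, 35 lower and 49 did not pass, so that 53.3% passed, against 41.9% of all genes, and their median log2 fold change was −0.17. The groups did not overlap for 67.6% of them, against 53.8% of all genes. The count of higher genes was 12, 13 and 12 without pRb-expressing culture 1, 2 or 3 and 9 without pRb-deficient culture 2. With chromosome medians removed, 13 of the 105 were higher and 24 lower, while 40.2% of all genes passed. Of 35 other genes of double-strand break and crosslink repair, 6 were higher and 11 lower, so that 48.6% passed. Sem1, a small partner of Brca2, was at −0.89 (adjusted p = 0.00011 from limma), Rpa3, a subunit of the single-strand binding protein, at −0.81, the recombination gene Rad51d at −1.13 and the core complex gene Fancf at −0.59.

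Larger changes stood among the excision genes, of which 9 were higher and 14 lower of 36, so that 63.9% passed, against 41.9% of all genes. Ercc5, the endonuclease of nucleotide excision repair, fell from a mean signal of 1070 ± 110 to 155 ± 44.2 (SD, n = 3 each; log2 fold change −2.82, adjusted p = 9.63e-05 from limma). Mgmt, which removes alkyl groups from guanine, fell from 413 ± 45.2 to 81.2 ± 20.4 (log2 fold change −2.37). The mismatch repair gene Pms1 was at −1.45 and the alkyladenine glycosylase gene Mpg at −1.07. The changes of Ercc5, Mgmt and Pms1 lay outside the range of −1.30 to 0.82 of the 38 genes above.

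Of 34 other genes of damage signaling and tolerance, 6 were higher and 10 lower, so that 47.1% passed, against 41.9% of all genes. Hus1, a subunit of the checkpoint clamp that supports Atr, fell from 1260 ± 35.9 to 370 ± 22.6 (SD, n = 3 each; log2 fold change −1.77, adjusted p = 1.56e-05 from limma). The translesion polymerase genes Rev1 and Polk were at −1.21 and −0.83, and Mdc1, which binds chromatin at breaks, was at −0.62. Of the other repair genes named, Ercc5, Pms1 and Rev1 lie on chromosome 1 (median −0.50) and Rad51d, Mpg and Hus1 on 11 (−0.52). Sem1 and Rpa3 lie on 6 (−0.58), Fancf and Mgmt on 7 (−0.33), Mdc1 on 17 (−0.26) and Polk on 13 (0.33).

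**Figure D5:**
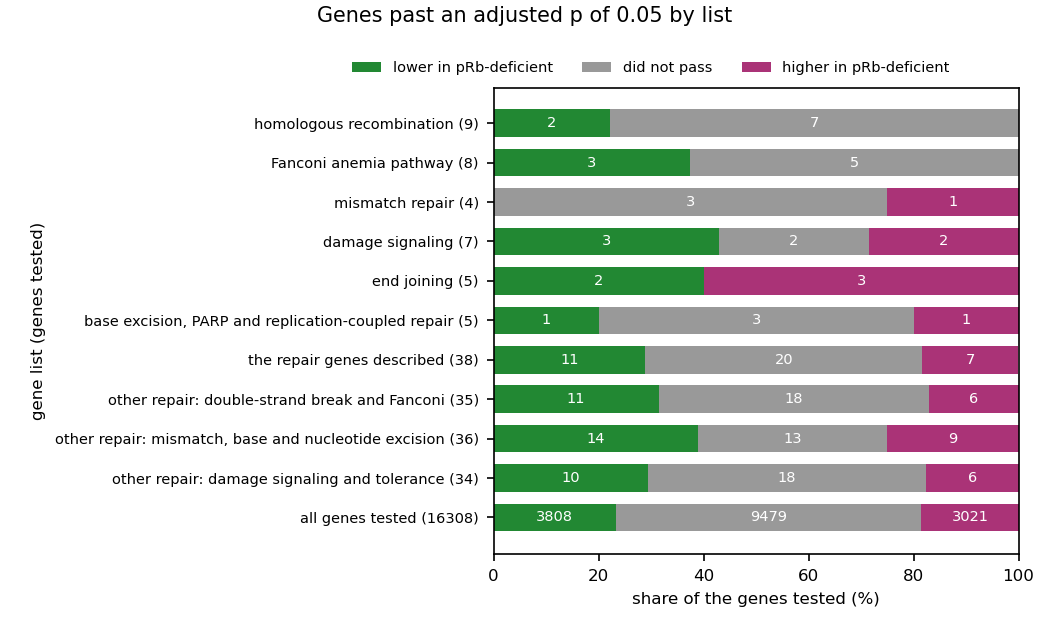
Share of the tested genes of each list (percent) that were lower, did not pass or were higher in pRb-deficient osteoblasts, with the number of genes in each bar. Homologous recombination and Fanconi genes of the set have no bar for higher, and all 5 end joining genes of the set passed, against 41.9% of all genes.

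For comparison, 36 DNA replication genes, a group under E2F control, had 9 higher, 5 lower and a median log2 fold change of −0.02, and 38.9% passed, against 41.9% of all genes. Dut at 1.41, Prim1 at 0.91 and Cdt1 at 0.63 had the lowest adjusted p-values. The 5 lower genes were Cdc6 (−1.30), Tk1 (−1.12), Chaf1b (−0.70), Pold1 (−0.54) and Mcm2 (−0.53), named here after their values were seen. Of 19 targets of p53, the factor that Atm and Chek1 signaling activates, 5 were higher and 11 lower, with a median of −0.82. Of these targets 84.2% passed, against 41.9% of all genes. Ccng1 was at −2.33, while Perp rose from 36.3 to 2270 in mean signal and Pmaip1 from 1.6, below the floor, to 1420.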

How the data were processed

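The authors hybridized biotin-labelled cRNA and deposited MAS5 intensities on a linear scale, scaled by them to a trimmed mean of 500. Affymetrix Expression Console 1.1 is named, with MAS5, in the processing notes of the submitters. The table held no detection calls, and no genome build is given in the sources used here. Of 45101 probe sets, 64 controls and those at or below 32 on all 6 arrays were left out, and 38427 were tested. Values under 32 were raised to 32, and log2 values were modelled in limma 3.58.1 under R 4.3.3 (lmFit, then eBayes with trend). Group was the sole term, leaving 4 residual degrees of freedom, with a two-sided Benjamini-Hochberg adjusted threshold of 0.05. The methods of the study name a rank test, which 3 against 3 arrays cannot bring below an exact p of 0.10, so it was an alternative. Genes were named from the array's annotation, which gave 1 symbol for 34945 probe sets and several or none for 10092, and 34741 of the former had a chromosome in RefSeq. The precision is limited by the number of arrays.

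The text names every repair gene of the set, the 4 genes with the lowest adjusted p of each further repair list, and 3 each of the replication and p53 lists. The 5 replication genes that were lower are named as well, after their values were seen. Nhej1, Poll, Aplf, Polm, Polq and Mre11a are also named, beside genes of the set with a related role, after their values were seen. The genes and lists were chosen with earlier results of these data known. Alternatives were other floors, a filter on dim probe sets, quantile normalization, median centring, no intensity trend, a replicate block, removal of chromosome medians, the rank statistic, the second brightest probe set and leaving out each array.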

Additional observations from a re-analysis of the deposited data

How the results depend on the processing

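The counts of repair genes that were higher (7) and lower (11) stayed within 1.5 times under a floor of 100, no floor, a minimum mean signal of 100, quantile normalization, median centring, no intensity trend and the replicate block. With chromosome medians removed 3 were higher and 6 lower, and the median log2 fold change was −0.0243. Of the other repair genes, 13 were then higher instead of 21 and 24 lower instead of 35. With the second brightest probe set, fewer genes were tested (25): 3 were higher and 7 lower, and of 64 other repair genes 9 were higher and 19 lower. The rank statistic called 0 in all 4 counts, since even complete separation had a false discovery rate of 23.1%, whereas limma called 18 of the 38 genes. Without 1 array, 7 to 12 repair genes were lower and 9 to 19 of the other repair genes higher. The count of lower genes was 7 without pRb-expressing culture 2 or 3.

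With chromosome medians removed, signs turned for Rad52 (0.12), Palb2 (0.28), Xrcc3 (−0.05), Fancd2 (0.34), Fanci (0.15), Msh6 (0.26), Pms2 (−0.11), Chek2 (−0.19) and Xrcc5 (0.02). They turned with the second probe set for Fanca (0.41), Fancc (−0.03), Pms2 (−0.34) and Xrcc6 (−0.14). Palb2 was at 0 under quantile normalization and median centring, and ranged from −0.16 to 0.09 without 1 array. Msh6 was at 0.05 under median centring and ranged from −0.11 to 0.06 without 1 array. The cause was not tested. Rad51c passed with a floor of 100 (adjusted p = 0.0322), no floor (0.0421), a minimum mean signal of 100 (0.0236) and median centring (0.0466), and Blm (0.034) and Exo1 (0.0381) passed with that minimum.

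Same-numbered cultures did not deviate together (correlations −0.03, −0.07 and 0.03), so the numbers were not taken as pairs. With the replicate block 7 repair genes were higher and 12 lower, Xrcc5 no longer passed (adjusted p = 0.0569), and Blm (0.0341) and Exo1 (0.0457) passed. Over all single genes of the set and alternatives, 490 values kept direction and side of the threshold, 30 kept direction but no longer passed, 16 newly passed and 21 turned sign. Among the last, Xrcc5 (chromosome medians removed) and Xrcc6 (second probe set) also no longer passed.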
